A study of Mus musculus with 6 samples.

Results

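Interleukins are secreted proteins through which leukocytes, epithelium and stroma signal to each other, and most act through receptors built from several chains. Many chains are shared: the common gamma chain serves IL-2, IL-4, IL-7, IL-9, IL-15 and IL-21, gp130 serves IL-6, IL-11 and IL-27, and IL-17RA pairs with the other IL-17 receptor chains. Most of these receptors signal through JAK kinases and STAT transcription factors, whereas the IL-17 receptors signal through the adaptor Act1. In the lung, IL-4 and IL-13 are known for type 2 responses and mucus production, and IL-17 for the recruitment of neutrophils. The genes described here are the mouse interleukins and interleukin receptors outside the IL-1 family, taken by symbol from the deposited count table: symbols that start with Il and a number, without the IL-1, IL-18 and IL-33 groups. The rule found 56 of the 29753 lines of the table, with 54 symbols. They comprise 22 ligands, 33 receptor lines and Il4i1, a secreted enzyme that is named for its induction by IL-4 and is not an interleukin.

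RNA of whole lungs from balb/c mice was sequenced at 2 times, labelled D0 and D14, counted in days from the orthotopic implantation of K7M2, a mouse osteosarcoma line known to metastasise to the lung. Each time has 3 libraries, with between 14878101 and 17385006 counts each. Age, sex, the site of implantation and the number of mice per library are not stated in the labels, so each p-value refers to the spread among the 6 libraries, which the titles number as biological replicates. Both groups are labelled for K7M2 implantation, and a D14 group without implanted cells was not analysed here, so the tumour, the procedure, the age of the mice and the day of collection cannot be told apart. The tissue label gives lungs, but the RNA extraction protocol speaks of macrophages grown from bone marrow. Sftpc, the surfactant protein of alveolar type 2 cells, stood at 22639 ± 11201 CPM on D0, against 16471 ± 3115 CPM at D14 (SD, n = 3 each). CPM is a count divided by the library total, on the usual scale and adjusted by TMM factors. Marco, a scavenger receptor of alveolar macrophages, was at 1.86, 2.17 and 35.7 CPM on D0, against 1.51, 2.36 and 0.833 CPM at D14. It is 1 of 6 alveolar macrophage markers, which summed to 333 to 1229 CPM on D0, against 417 to 901 CPM at D14. Their log2 fold changes went both ways, with 2 positive and 4 negative.

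D0 replicate 3 stood apart from the other libraries, at 82.8 on the first principal component against −41.5 to 15.7. A different pair, D0 replicate 1 and D14 replicate 3, stood out for genes of developing lymphocytes. Rag1, which cuts antigen receptor genes in immature lymphocytes, was at 12.8 and 12.9 CPM in that pair and at 0.256 to 2.74 CPM in the other 4 libraries. In bulk tissue, fewer cells of a type and less RNA per cell cannot be told apart, and this holds for every gene below.

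Of the 56 lines, 38 passed the filter on low counts and were tested among 17686 genes. The division by role was uneven: 8 of 22 ligands were tested, against 29 of 33 receptor lines. Per kilobase of the longest annotated transcript, the highest mean level over the 6 libraries was that of Il2rg, the common gamma chain, at 42.3 CPM per kilobase. Il10rb, a shared chain of the IL-10 and IL-22 receptors, followed at 38.8, Il11ra1, the binding chain for IL-11, at 35.8, Il4ra, the binding chain for IL-4, at 31.8, and Il6st, which encodes gp130, at 27.1 CPM per kilobase. Among ligands the highest values were those of Il17d, an IL-17 family cytokine of tissue cells, at 9.71, Il34, a ligand of the CSF1 receptor, at 8.91, and Il16, a chemoattractant for CD4 T cells, at 5.67 CPM per kilobase. Each of these 5 receptor chains thus stood above every ligand on this scale. All 56 lines together held between 1019 and 1148 CPM per library, with overlapping ranges at D0 and D14.

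**Figure D1:**
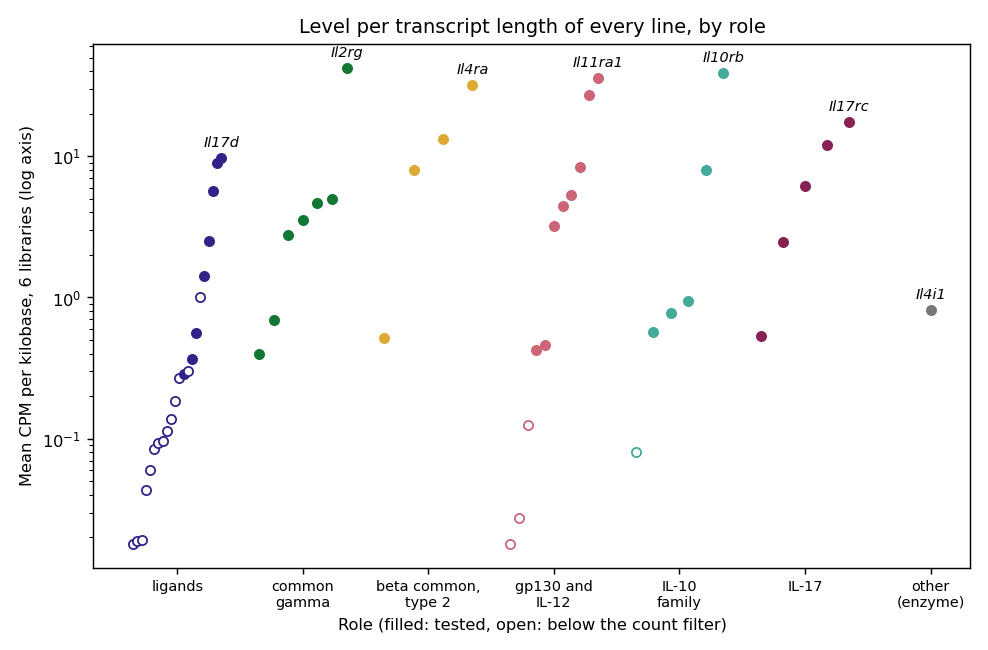
Mean level per kilobase of transcript over the 6 libraries (log axis) for every line, by role; filled points were tested and open points were below the count filter. The highest receptor chains, Il2rg at 42.3 and Il10rb at 38.8 CPM per kilobase, lie above the highest ligand, Il17d at 9.71.

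At an adjusted p of 0.05 (edgeR quasi-likelihood test, Benjamini-Hochberg over all tested genes), 0 of the 38 tested lines passed, where 6 of 17686 genes passed (0.0339%). DESeq2 on the same counts called 2 members, Il6st higher and Il17d lower at D14, where it called 1.55% of all genes. At an unadjusted p under 0.05 with edgeR stood 6 lines (15.8%), against 12.6% of all genes. The 2 higher lines compare with 5.48% of all genes higher, and the 4 lower lines with 7.09% of all genes lower. Ranges of D0 and D14 did not overlap in 7 lines (18.4%), against 21.6% of all genes, with 2 higher (10.9% of all genes) and 5 lower (10.7% of all genes). The median log2 fold change over the tested lines was −0.09, against −0.03 over all genes. In either direction together, the members' shares at an unadjusted p under 0.05 and with separate ranges were thus near those of all genes. The 2 DESeq2 calls among 38 lines, and the counts split by direction, are too few to read a share from.

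**Figure D2:**
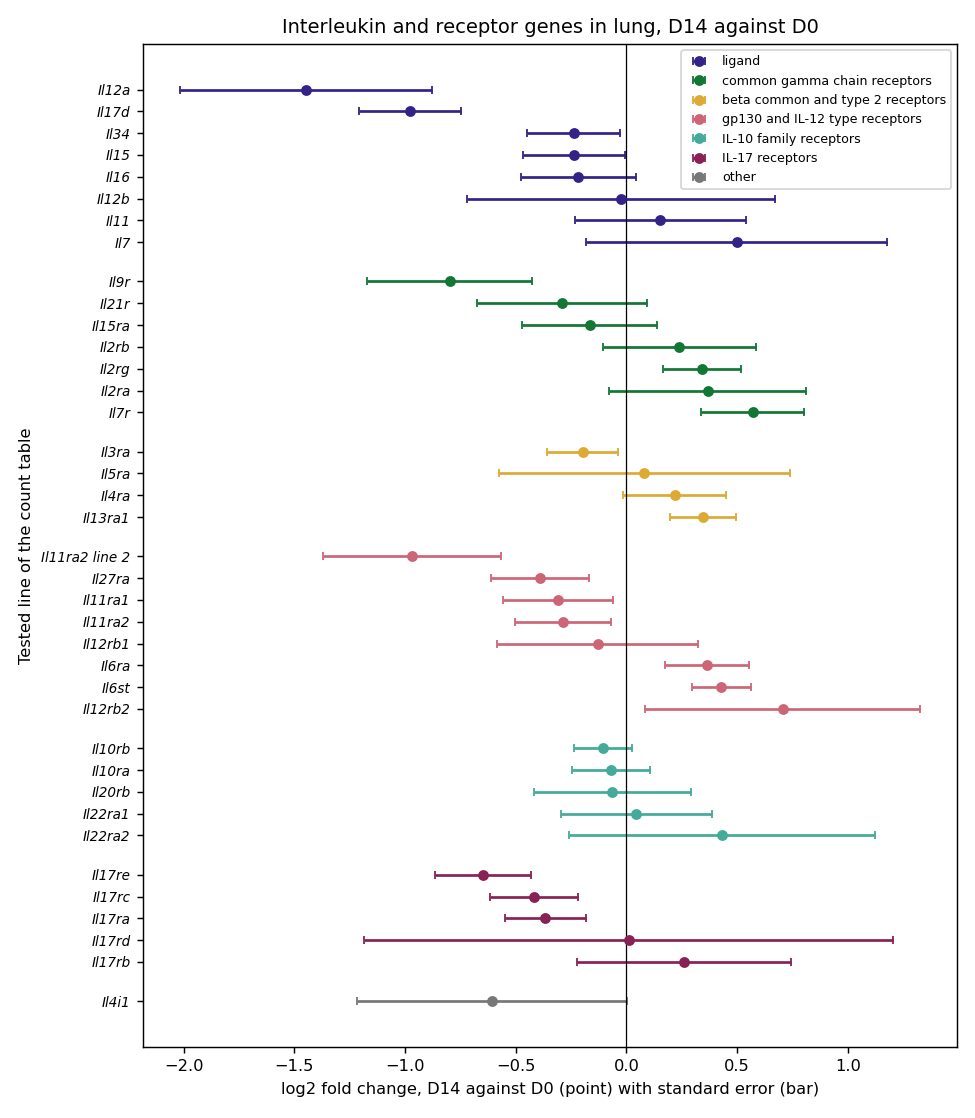
Log2 fold change of D14 against D0 (points) with its standard error (bars) for the 38 tested lines, grouped by role. The ligands run from −1.45 (Il12a) to 0.50 (Il7), and the bars of Il17rd and Il22ra2 are among the widest.

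Il17d, among the ligands, had the smallest p of all members. It stood at 12.2, 18.1 and 19.0 CPM in the D0 libraries and at 9.38, 8.48 and 7.11 CPM in the D14 libraries. Every D14 library was below every D0 library, with means of 16.4 ± 3.72 and 8.33 ± 1.14 CPM (SD, n = 3). The log2 fold change was −0.98 (SE 0.23; adjusted p = 0.333 with edgeR and 0.0299 with DESeq2), and it lay between −1.15 and −0.86 with any 1 library left out. In GRCm38 the gene lies on the plus strand of chromosome 14 from 57524777 to 57543166.

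Il12a encodes the p35 subunit of IL-12. It lies on the plus strand of chromosome 3 from 68690644 to 68698547. Its values were 4.65, 2.36 and 1.12 CPM on D0, against 0.695, 1.47 and 0.833 CPM at D14. The ranges overlapped, and D0 replicate 1 was the highest library. The log2 fold change was −1.45 (SE 0.57; adjusted p = 0.380), and it was −0.80 without D0 replicate 1 and −0.69 (adjusted p = 0.652) when the pair of libraries with high Rag1 was left out. Il12b, the p40 subunit shared by IL-12 and IL-23, stood at 0.566 ± 0.309 CPM on D0, against 0.547 ± 0.367 CPM at D14. The 6 B cell markers, all with negative log2 fold changes, summed to 134 to 223 CPM on D0, against 82.8 to 125 CPM at D14, and their part in the result was not tested.

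Il15, which sustains NK cells and memory CD8 T cells, had D0 values of 6.16, 4.73 and 4.71 CPM and D14 values of 4.29, 4.27 and 4.68 CPM. The ranges did not overlap, but the gap between the closest libraries was small, and the log2 fold change was −0.24 (SE 0.23; adjusted p = 0.654), or −0.090 without D0 replicate 1. Il7, singled out after its values were seen, a survival factor for lymphocytes made by stroma and epithelium, split the libraries in another way. Its values were 1.51, 1.15 and 4.14 CPM on D0, against 4.63, 4.02 and 0.897 CPM at D14, so that each day held high and low libraries (log2 fold change 0.50, SE 0.68). Il16 was the most abundant tested ligand by CPM, at 32.0 ± 10.8 CPM on D0, against 27.6 ± 4.45 CPM at D14, and the log2 fold change came to −0.22 (SE 0.26), or 0.069 without D0 replicate 2. Il34 and Il11, the latter a gp130 cytokine tied to fibrosis, gave log2 values for D14 against D0 of −0.24 (SE 0.21) and 0.15 (SE 0.39).

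The remaining 14 ligands were below the filter. Over all 18 lines below the filter, the highest count in a library was 23 and the median 2. Il6, the cytokine that acts through Il6ra and gp130, had 5, 0 and 23 counts on D0, against 8, 21 and 8 counts at D14. Il4, the cytokine that drives type 2 T helper cells, had 18, 8 and 7 counts on D0, against 8, 9 and 9 at D14. Il13, which drives mucus production, had 2, 2 and 1 counts on D0, against 0 in each D14 library, where 3 counts, the limit that a count of 0 allows, correspond to between 0.174 and 0.192 CPM. Il17b, a further IL-17 family ligand, had 0 counts in each D0 library and 6, 2 and 0 at D14. Il10, an anti-inflammatory cytokine, had 1 to 6 counts per library, and Il5, the eosinophil growth factor, 0 to 5. No difference in these ligands was detectable at this depth, and limits of this kind cover counting error only.

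Among the common gamma chain receptors, Il7r, the IL-7 receptor alpha chain of T cells and innate lymphoid cells, was at an unadjusted p under 0.05. It lies on the minus strand of chromosome 15 from 9505788 to 9530176. Its values were 15.2, 14.5 and 13.1 CPM on D0, against 14.5, 24.0 and 25.1 CPM at D14. D14 replicate 1 lay within the D0 range, and the other D14 libraries lay above it. Means were 14.3 ± 1.07 and 21.2 ± 5.82 CPM, and the log2 fold change came to 0.57 (SE 0.23; adjusted p = 0.387). The T cell markers summed to 55.6 to 99.3 CPM on D0, against 52.8 to 68.6 CPM at D14, and the 5 markers of type 2 innate lymphoid cells, some of which other cells share, to 72.4 to 79.0 and 98.8 to 134 CPM. The latter markers went both ways, with 3 positive and 2 negative log2 fold changes from −0.92 (Gata3) to 2.06 (Il1rl1), and the part of either list in the Il7r values was not tested.

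Il2rg stood at 77.8, 54.4 and 54.8 CPM on D0, against 75.3, 81.8 and 80.0 CPM at D14, and the log2 fold change came to 0.34 (SE 0.18; adjusted p = 0.443). D0 replicate 1 lay with the D14 libraries, and without it the value was 0.54. Il9r, the receptor chain for the mast cell and T cell cytokine IL-9, was at 2.27, 1.92 and 2.67 CPM on D0, against 0.869, 1.85 and 1.22 CPM at D14. The ranges did not overlap, by a narrow gap, and the log2 fold change was −0.80 (SE 0.37; adjusted p = 0.417). Il21r and Il2rb, receptor chains of activated lymphocytes and of NK and T cells, varied widely within D0 and were also singled out after their values were seen. Il21r was at 12.4 CPM in D0 replicate 1, with the other libraries at 5.10 to 7.65 CPM, and Il2rb at 26.5, 18.1 and 9.55 CPM over the D0 libraries. Il2ra and Il15ra, the alpha chains for IL-2 and IL-15, gave log2 values for D14 against D0 of 0.37 (SE 0.45) and −0.17 (SE 0.30).

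Of the beta common and type 2 receptors, Il13ra1, which joins Il4ra to form the IL-13 receptor, was higher in every D14 library. It lies on the plus strand of chromosome X from 36112110 to 36171259. Its values were 50.4, 42.0 and 38.4 CPM on D0, against 53.2, 56.8 and 56.3 CPM at D14. The log2 fold change was 0.35 (SE 0.15; adjusted p = 0.400). Il4ra itself was at 211, 140.2 and 114 CPM on D0, against 178, 192 and 170.3 CPM at D14, and the log2 fold change came to 0.22 (SE 0.23). Its D0 libraries spanned the whole D14 range, and leaving out D0 replicate 1 gave 0.51, whereas leaving out D0 replicate 3 gave 0.039. Il3ra and Il5ra, the alpha chains for IL-3 and IL-5, gave log2 values for D14 against D0 of −0.20 (SE 0.16) and 0.08 (SE 0.66).

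Among the gp130 and IL-12 type receptors, Il6st had the smallest p. It was at 198, 201 and 203 CPM on D0, against 275, 279.8 and 255 CPM at D14. The D14 libraries lay above the D0 libraries, with means of 201 ± 2.38 and 269.9 ± 13.1 CPM (SD, n = 3). The log2 fold change was 0.43 (SE 0.13; adjusted p = 0.364 with edgeR and 0.0495 with DESeq2), and it stayed between 0.40 and 0.47 with any 1 library left out. Il6st lies on the plus strand of chromosome 13 from 112464070 to 112510086 (GRCm38). Il6ra, the IL-6 binding chain, was at 70.3, 64.4 and 56.2 CPM on D0, against 69.2, 74.2 and 102 CPM at D14 (log2 fold change 0.36, SE 0.19; adjusted p = 0.444), with overlapping ranges. Endothelial markers summed to 1828 to 3585 CPM on D0, against 4203 to 4328 CPM at D14, and all 5 had positive log2 fold changes, and their part in the Il6st values was not tested.

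The IL-11 receptor lines need care because their genes are near copies on chromosome 4. The coding sequences of Il11ra1 and Il11ra2 in GENCODE have 1296 bases each and differ at 13, and the coding sequence of Gm13305 is identical to that of Il11ra2. Of the 1247 windows of 50 bases in the Il11ra1 coding sequence, 738 (59.2%) occur unchanged in Il11ra2. A read that lies wholly within such a window cannot be assigned to 1 copy by its sequence. Longer or paired reads may reach a difference, and read length is not given here. The 60 coding bases from 1030 to 1089 of both are shown, counted from the start codon, because they hold 3 of the differences, which are in capitals (C1034T, G1062A and C1089T, Il11ra1 first).
Il11ra1: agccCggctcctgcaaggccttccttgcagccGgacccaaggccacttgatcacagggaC
Il11ra2: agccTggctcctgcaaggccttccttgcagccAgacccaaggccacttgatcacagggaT

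The table held 3 lines named Il11ra2. The line with the most counts was at 7.63 ± 1.20 CPM on D0, against 6.26 ± 0.694 CPM at D14, and the line with the fewest had 2 counts in all. The second line was at 3.02, 4.66 and 8.78 CPM on D0, against 3.07, 2.81 and 2.50 CPM at D14. Its log2 fold change was −0.97 (SE 0.40; adjusted p = 0.391), with D0 replicate 3 as the highest library and overlapping ranges, and it was −0.46 without that library. With the 3 lines summed, the log2 fold change of Il11ra2 was −0.54 (SE 0.26; adjusted p = 0.421). Il11ra1 was at 53.0, 79.7 and 106 CPM on D0, against 62.4, 71.0 and 59.0 CPM at D14, and its log2 fold change of −0.31 (SE 0.25) became −0.05 without D0 replicate 3. Given the shared sequence, the split of counts between these lines is uncertain. Among the IL-12 type receptors, Il27ra, the IL-27 binding chain, had a log2 fold change of −0.39 (SE 0.22), Il12rb1 of −0.13 (SE 0.45) and Il12rb2 of 0.71 (SE 0.62).

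Of the IL-10 family receptors, Il10rb was at 74.3 ± 6.52 CPM on D0, against 69.1 ± 0.703 CPM at D14 (log2 fold change −0.11, SE 0.13, or −0.043 without D0 replicate 3). Il10ra, the IL-10 binding chain of leukocytes, was at 28.4 ± 3.01 and 27.1 ± 4.59 CPM (−0.07, SE 0.18). The epithelial chains Il20rb and Il22ra1 were at 1.12 to 3.01 CPM in every library, and Il22ra2, a soluble antagonist of IL-22, ranged from 0.753 to 4.59 CPM. Of the 5 tested lines, 0 were at an unadjusted p under 0.05 (12.6% of all genes) and 0 had separate ranges (21.6% of all genes), and nothing is read from a count of 0 in so few lines.

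Of the 5 IL-17 receptor chains, 3 had negative log2 fold changes, as had 9400 of the 17686 genes, and 0 passed the adjusted threshold (0.0339% of all genes). Il17re, the chain that binds IL-17C on epithelium, was at 35.3, 51.8 and 42.5 CPM on D0, against 34.9, 24.2 and 23.7 CPM at D14. The ranges did not overlap, although D14 replicate 1 was within 1 CPM of the lowest D0 library. Means were 43.2 ± 8.22 and 27.6 ± 6.37 CPM, and the log2 fold change was −0.65 (SE 0.22; adjusted p = 0.364). Il17rc, the partner of Il17ra for IL-17A and IL-17F, was at 40.5, 38.9 and 59.1 CPM on D0, against 37.2, 30.6 and 35.96 CPM at D14 (log2 fold change −0.42, SE 0.20; adjusted p = 0.421). Without D0 replicate 3, the highest library, this value was −0.20. Il17ra, the shared chain, was at 63.7, 50.6 and 47.8 CPM on D0, against 48.1, 42.8 and 34.8 CPM at D14, with ranges that overlapped narrowly (log2 fold change −0.37, SE 0.18; adjusted p = 0.431). It was −0.22 without D0 replicate 1 and −0.10 without the high Rag1 pair. Il17re and Il17rc are neighbours on the plus strand of chromosome 6, from 113458484 to 113470758 and from 113471427 to 113483140, with 668 bases between them. Il17rb, the IL-25 receptor chain, was at 0.632 to 1.69 CPM. Several members, among them Il17rb, Il12rb2, Il10rb, Il2rg, Il16, Il34, Il11ra1 and Il4i1, overlap other annotated genes, and since strand handling is not given, reads of the partners may be mixed. Il4i1 itself was at 2.62, 0.958 and 3.16 CPM on D0, against 1.16, 2.61 and 0.641 CPM at D14 (log2 fold change −0.61, SE 0.61). That value ran from −1.30 without D14 replicate 2 to −0.25 without D14 replicate 3, and was −0.12 without the high Rag1 pair.

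**Figure D3:**
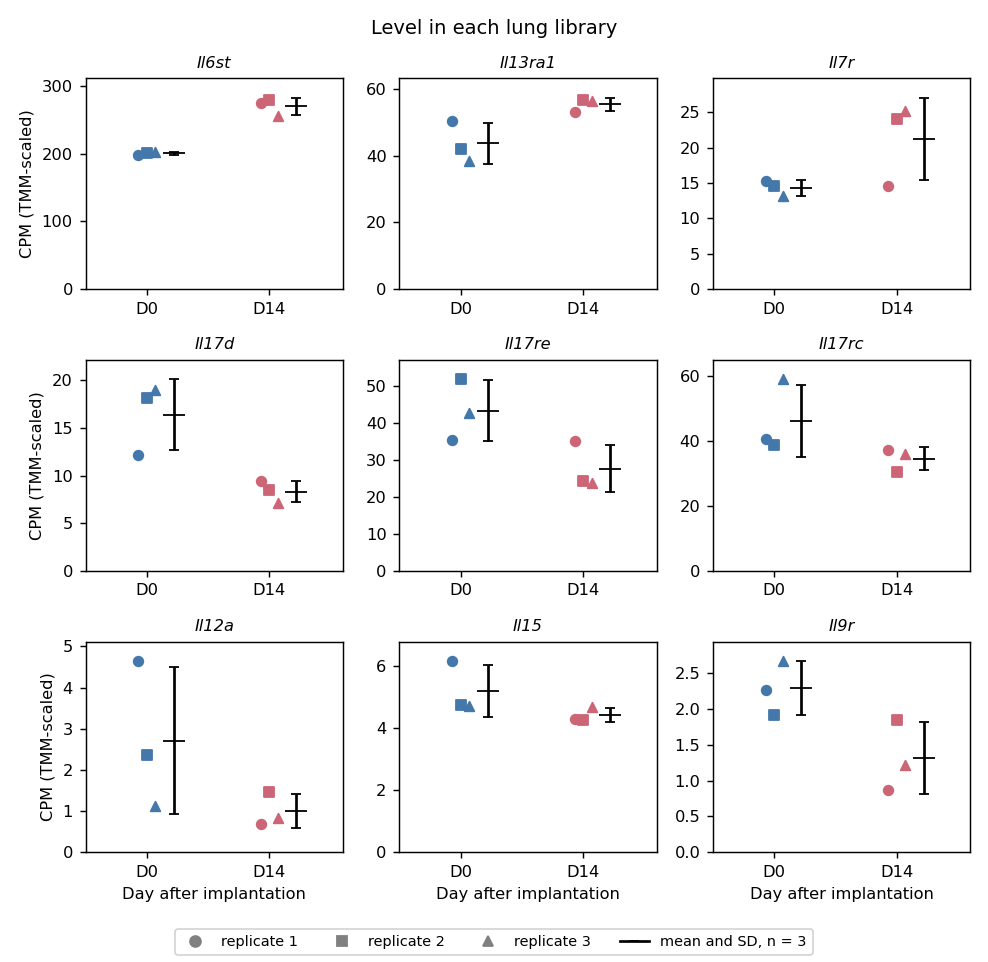
CPM of 9 members in each library (points, shaped by replicate number) with the mean and SD of each day (n = 3); every axis starts at 0. Il6st and Il13ra1 lie higher and Il17d, Il17re, Il17rc, Il15 and Il9r lower in all D14 libraries, while the days overlap for Il7r and Il12a.

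Il17rd, also called Sef, an inhibitor of FGF and ERK signalling that can associate with IL-17RA, had the largest standard error of the tested members and was singled out after its values were seen. It stood at 49.0, 9.84 and 2.04 CPM on D0, against 5.85, 7.52 and 48.2 CPM at D14. D0 replicate 1 and D14 replicate 3 were high and the other libraries low, so the days had like means of 20.3 ± 25.1 and 20.5 ± 24.0 CPM. The log2 fold change was 0.01 (SE 1.19; adjusted p = 0.997), and it ran from −1.60 without D14 replicate 3 to 1.78 without D0 replicate 1. Per transcript length, Il17rd made up 13.3% and 16.8% of the 5 IL-17 receptor genes in the high pair and 0.525% to 3.20% in the other libraries. GENCODE lists no other gene that overlaps its span on chromosome 14, from 27038941 to 27107286.

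The same pair of libraries was high for several genes of developing lymphocytes, from a list added after these values were seen. Dntt, which adds bases at antigen receptor joints, was at 5.35 and 5.32 CPM in the pair and 0.0702 to 0.574 CPM elsewhere. Themis, a thymocyte signalling protein, was at 6.80 and 8.01 CPM against 2.67 to 3.70 CPM. Ccr9, a homing receptor of thymocytes and gut T cells, was at 6.86 and 5.51 CPM against 1.26 to 3.32 CPM, and Prss16, a protease of thymic epithelium, at 3.60 and 2.76 CPM against 0.829 to 1.09 CPM. Ptcra, the pre-T cell receptor chain, was at 0.116 CPM in D0 replicate 1 and had no count in the other libraries. The 10 genes of the list, of which 6 passed the filter on low counts, summed to 131 and 107 CPM in the pair and to 38.1 to 71.0 CPM elsewhere. Most of each sum in the pair came from genes of the list that are not described here. The part of the list in the Il17rd values was not tested.

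**Figure D4:**
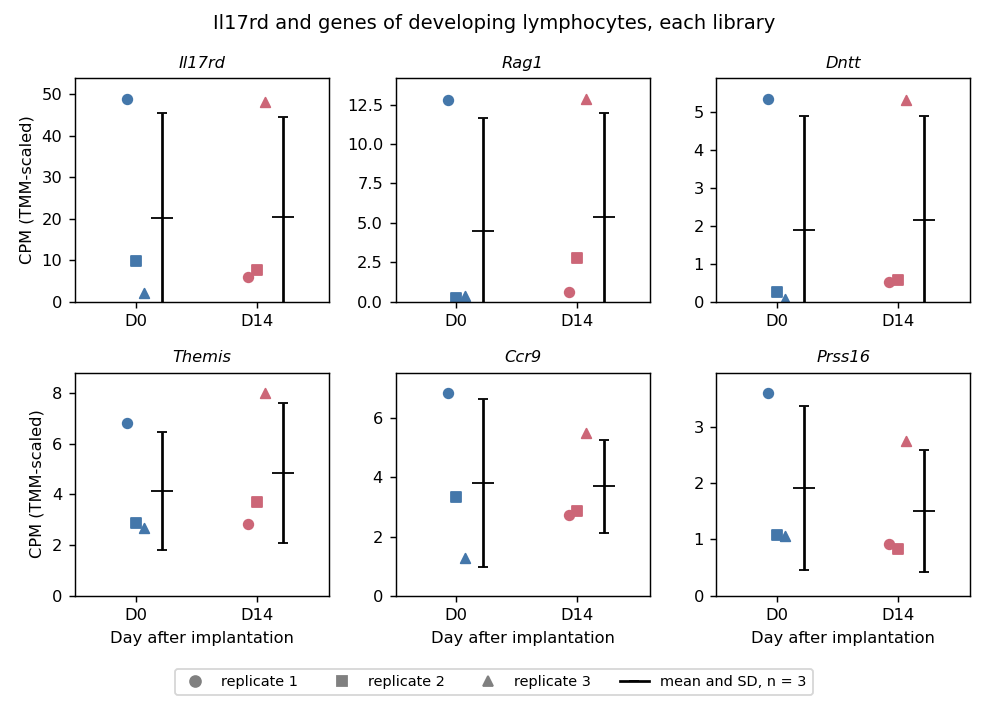
CPM of Il17rd and of 5 genes of developing lymphocytes in each library (points, shaped by replicate number) with the mean and SD of each day (n = 3); SD bars that would reach below 0 end at the axis. In all 6 panels D0 replicate 1 and D14 replicate 3 are the highest libraries.

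STAT proteins bind sites of the form TTCNNNGAA, and STAT6 also TTCNNNNGAA. Both forms were searched in the RefSeq promoter windows of GRCm38.p6, 250 bases before to 50 after a gene's start. They read the same on either strand, and no match of one spacing is a match of the other at the same position. The windows of 38 of the 54 symbols were found. These symbols have 45 windows. TTCNNNGAA occurred in 6 of the 45 (13.3%) and in 8.30% of all 32851 windows, and TTCNNNNGAA in 6 of the 45 (13.3%) and in 6.95% of all windows. By symbol, the shorter form occurred in 6 of the 38 and the longer form in 5. These counts are too few to read a share from. Of the members at an unadjusted p under 0.05, Il17d and Il7r held the shorter form and Il12a the longer form, and these matches are shown with their flanks, the motif in capitals.
Il17d: ccttatttacTTCGCAGAAgagccttcag
Il7r: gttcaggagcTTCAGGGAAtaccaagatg
Il12a: aggagttaagTTCCAAGGAAtctcctaccc
The Il17d stretch lies at chr14:57524838-57524866 on the plus strand, with the motif starting at base 20 from the RefSeq start, which lies downstream of the GENCODE start given above. The Il7r stretch is at chr15:9530000-9530028 on the minus strand, with the motif starting at position −142 from the RefSeq start. This stretch lies within the GENCODE span of Il7r given above. The Il12a stretch is at chr3:68690434-68690463 on the plus strand, and the window of a second Il12a start holds another match. Il6st held neither form in its window. Il17re and Il11ra2 (by its second line), also at an unadjusted p under 0.05, were not among the symbols with a match, and not every symbol had a window. A match is a run of letters and shows no binding.

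Genes that act downstream of the receptors were read from lists. Of 26 JAK, STAT, SOCS, PIAS and phosphatase genes, all tested, 4 were at an unadjusted p under 0.05, 2 higher and 2 lower, or 15.4% against 12.6% of all genes, and 0 passed the adjusted threshold. Stat3, the transcription factor that gp130 receptors activate, was at 171, 173 and 159 CPM on D0, against 215, 233 and 199.6 CPM at D14 (log2 fold change 0.36, SE 0.14; adjusted p = 0.373). Jak1, a kinase bound to gp130 and to common gamma chain partners, was at 237, 217 and 173 CPM on D0, against 254, 281 and 295 CPM at D14 (0.41, SE 0.17; adjusted p = 0.390). For Stat3, Jak1 and Il6st, every D14 library lay above every D0 library. Ranges did not overlap in 8 of the 26 listed genes (30.8%, against 21.6% of all genes). Of these 8, 6 were higher (10.9% of all genes) and 2 lower (10.7% of all genes). Ptpn6, the phosphatase SHP-1 of blood cells, stood at 62.4 ± 10.8 and 44.3 ± 5.03 CPM (−0.49, SE 0.18), and Pias4, an inhibitor of STAT signalling, at 32.2 ± 0.658 and 24.1 ± 2.62 CPM (−0.42, SE 0.14).

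Of 23 receptor chains, ligands and adaptors with other names that work with these receptors, 22 were tested. At an unadjusted p under 0.05 stood 7 of them, 1 higher and 6 lower, or 31.8% against 12.6% of all genes, and 0 passed the adjusted threshold with edgeR. Csf2ra, the GM-CSF receptor alpha chain, was at 32.7, 42.9 and 36.7 CPM on D0, against 22.6, 19.5 and 22.8 CPM at D14 (log2 fold change −0.79, SE 0.16; adjusted p = 0.308 with edgeR and 0.0124 with DESeq2). Csf2, its ligand, was at 2.38, 1.66 and 5.76 CPM on D0, against 1.33, 1.21 and 0.641 CPM at D14 (−1.61, SE 0.54; adjusted p = 0.364), and the value was −0.92 without D0 replicate 3. In both, every D14 library lay below every D0 library. Traf3ip2, which encodes the IL-17 receptor adaptor Act1, was at 28.5 ± 1.57 and 20.7 ± 0.872 CPM (−0.46, SE 0.14; adjusted p = 0.356). Ctf1, the gp130 cytokine cardiotrophin 1, was at 11.9 ± 3.13 and 6.40 ± 1.98 CPM (−0.89, SE 0.31; adjusted p = 0.364). The higher gene at an unadjusted p under 0.05 was Lepr. It was at 79.9, 63.4 and 41.5 CPM on D0, against 95.7, 89.0 and 122 CPM at D14. Its log2 fold change was 0.73 (SE 0.25, edgeR adjusted p = 0.364), and every D14 library lay above every D0 library.

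Of the genes that the cytokines induce, the count at an unadjusted p under 0.05 was 1 of 11 tested genes for IL-6 and STAT3, 1 of 13 for IL-4, IL-13 and STAT6, 0 of 8 for STAT5 and 0 of 8 for IL-17, where 12.6% of all genes were. Lists this short hold few such genes at that share, so nothing is read from these counts. Lrg1, a secreted glycoprotein of the acute phase, was at 66.6, 77.8 and 201 CPM on D0, against 54.0, 59.8 and 45.1 CPM at D14, and its log2 fold change of −1.12 (SE 0.41) was −0.44 without D0 replicate 3. Arg1, arginase 1 of alternatively activated macrophages, was at 2.73, 4.28 and 6.11 CPM on D0, against 1.33, 3.06 and 1.22 CPM at D14 (−1.22, SE 0.47). Lcn2 and S100a9, neutrophil and epithelial defence proteins from the IL-17 list, gave log2 values for D14 against D0 of −1.45 (SE 0.73) and 0.05 (SE 0.36), and Lcn2 was at 446 CPM in D0 replicate 3, with the other libraries at 60.4 to 74.5 CPM. Without that library its log2 fold change was 0.072. Ccnd2 and Socs2, a cyclin and a signalling inhibitor that STAT5 induces, stood at 0.27 (SE 0.16) and 0.18 (SE 0.23).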

How the data were processed

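For 6 lung libraries the authors deposited estimated counts by gene symbol, without scaling for depth. The tools named per the submitters' processing notes are StringTie 1.3.4b, HISAT2 2.1.0, CASAVA 1.8 and edgeR, with the GRCm38 build. How each was set, how strand was handled and which annotation was counted are not given in the sources. Of 29757 lines, 4 were left out (2 empty, for Tnf and Tgfb1, and 2 displaced), and 50 repeated a symbol and were kept apart. The deposited counts were rounded to whole numbers and fitted with edgeR 4.0.16 in R 4.3.3: TMM factors, default low count filter, robust quasi-likelihood F test, two-sided, no covariate, Benjamini-Hochberg over all tested genes, threshold 0.05. A standard error is the log2 fold change divided by the square root of F. With 3 libraries per day a permutation test cannot go below 0.1 and none was used. Alternatives were DESeq2 1.42.0, voom in limma 3.58.1, other factors and filters, the replicate number as a block, and each library left out. Summed repeated symbols, and leaving out the pair of libraries with high Rag1, were added after the data were seen. The fit was tested on simulated data. Positions and lengths come from GENCODE M21 (GRCm38), which lists all 54 symbols, and promoter sequences from RefSeq (GRCm38.p6).

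Members described by library were those with non-overlapping days, an unadjusted p under 0.05, the highest CPM of their role, or 1 library over 3 times the others (which no tested member met). Il6ra, Il11ra1, Il7, Il21r, Il2rb and Il17rd fall outside this rule and were added after their values were seen. Named of each list were up to 4 genes at an unadjusted p under 0.05 or else the 2 most abundant. Lepr falls outside this limit and was added after its values were seen. The members, roles and lists were chosen with earlier results of these data known.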

Additional observations from a re-analysis of the deposited data

How the results depend on the processing

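Over all genes, the count past the threshold, 3 higher and 3 lower, became 168 higher and 106 lower with DESeq2, 22 higher without the low count filter, 0 in each direction with the replicate block and 0 in each direction without the pair of libraries with high Rag1. Leaving out 1 library gave 0 to 19 higher (19 without D0 replicate 3) and 0 to 3 lower. Among members the count of 0 became 1 higher and 1 lower with DESeq2 and stayed 0 under every other alternative run. At an unadjusted p under 0.05, the 2 higher members became 1 with no scaling factors (with 6 lower), 0 with the replicate block and 4 without the high Rag1 pair, and the 4 lower became 2 with the block. Leaving out 1 library gave 0 to 4 higher and 1 to 4 lower members. The members' median, −0.09, ran from −0.22 (without D0 replicate 2) to −0.054 (without D0 replicate 3). With no scaling factors the median of all genes was −0.10. No pairing by replicate number was seen: deviations from the day means correlated at 0.119, −0.0548 and −0.0972 between same-numbered libraries. Not every library correlated best with its own number. With so few libraries these values cannot show that the samples were unpaired.

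Some log2 fold changes changed sign. Il17rd became −0.12 with no scaling factors, −0.00017 with the replicate block, and −0.31, −0.52 and −1.60 without D0 replicate 2, D0 replicate 3 and D14 replicate 3, and with 1 library left out ran up to 1.78. Il16 ran from −0.43 to 0.069 (without D0 replicate 2), Lcn2 from −1.87 to 0.072 (without D0 replicate 3), and Socs2 from −0.019 (without D0 replicate 1) to 0.37, and it was −0.054 without the high Rag1 pair. S100a9 became −0.029 with no scaling factors, −0.055 with limma-voom and −0.058 with the replicate block, and ran from −0.36 (without D14 replicate 2) to 0.36 with 1 library left out. The cause was not tested. Depth limits the ligands below the filter.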

Other observations

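The receptor for TSLP, an epithelial cytokine of type 2 responses, joins Il7r to Crlf2. Chosen after their values were seen, Tslp was at 3.31, 2.88 and 3.16 CPM on D0, against 4.11, 3.95 and 3.91 CPM at D14 (log2 fold change 0.36, SE 0.23; edgeR adjusted p = 0.512), and Crlf2 at 25.1 ± 2.61 and 19.2 ± 4.54 CPM (−0.38, SE 0.21; adjusted p = 0.458). The D14 values of Tslp lay above those of D0, and those of Crlf2 below.

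Among genes whose log2 CPM varied with an SD over 0.8, the 3 most like Il17rd over the 6 libraries, by Pearson correlation and chosen after the values were seen, were Limd1 (0.994), Ccr9 (0.979) and Dhh (0.969). Limd1, a LIM domain scaffold protein, was at 89.7 and 83.8 CPM in D0 replicate 1 and D14 replicate 3 and 17.98 to 42.6 CPM elsewhere. Dhh, a hedgehog ligand, was at 4.59 and 6.28 CPM in that pair and 0.632 to 2.43 CPM elsewhere. Of the lymphocyte genes described above, Ccr9 was among the 3 closest. Genes below the low count filter or with a smaller SD were not ranked, so nothing is read from the absence of the others. All these values share the same 6 libraries and their scaling.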
